A study of Mus musculus with 37 samples.

Results

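The untreated colon of wild-type mice kept as controls of the chronic colitis protocol was set against that of wild-type controls of the acute protocol, over all measured genes. Members were chosen by the group given in the sample labels, which put 5 arrays in the chronic control group and 3 in the acute control group, 8 of the 37 arrays of the series. Both groups were C57BL/6J mice without a Timp1 mutation that had not received dextran sodium sulphate (DSS), the polysaccharide given by mouth to the colitis groups. The series also holds B6.129S4-Timp1tm1Pds/J knockouts (KO), which lack the gene of a secreted inhibitor of metalloproteinases, and DSS-treated mice of both genotypes and protocols. Total RNA of snap frozen colon was hybridised to Affymetrix Mouse Gene 1.0 ST arrays with 1 animal per array. The age and sex of the animals, the hour of collection and the stretch of colon taken are not given in the sources used here. The question was how far the untreated controls of the 2 protocols differ from each other.

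Animal numbers in the sample titles fall into series, and these differ between the groups. Chronic controls 4 and 5 carry numbers of series 14, chronic controls 1 to 3 carry numbers of series 11, and the 3 acute controls carry plain numbers. What a series stands for is not stated. No series holds wild-type controls of both protocols, so animal series and protocol cannot be told apart. Values are log2 signals of the robust multi-array average (RMA), a difference of 1 is a doubling, and each difference is given with its standard error (SE), estimated by limma from all 37 arrays. The precision thus depends on the number of animals, 5 and 3, and on the spread within all groups of the series, DSS-treated and KO mice included.

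The 8 arrays had median signals of 7.69 to 7.71 in chronic controls and 7.67 to 7.68 in acute controls. The epithelial genes that define colon were present at array values of 8.44 to 14.01 for all 9 of 10 listed markers that were measured, among them Muc2, the main mucin of goblet cells, and Car1, a carbonic anhydrase of surface colonocytes. None of the 9 differed between the groups over all 5 chronic controls in limma's test, and 1 of the 9 (Cdx2, lower) had an unadjusted p under 0.05. With the chronic controls of series 11 alone 1 of the 9 passed as lower. All 8 arrays had high Xist (12.11 to 12.30) and Y-linked signal at 5.15 to 5.40, so none carried the signal of a male animal. The first principal component of the 8 arrays held 42.1% of their variance. On it chronic controls of series 14 lay at 1.80 and 6.06, those of series 11 at 11.7 to 16.9, and acute controls at -22.5 to -13.0.

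Background for the largest differences is as follows. Nearly every cell runs a circadian clock, in which Arntl (also called BMAL1) and Clock drive genes through E-box motifs, Per, Cry and Ciart proteins switch that drive off, and the nuclear receptors Nr1d1 and Nr1d2 repress Arntl. Output factors such as Dbp, Tef and Hlf then bind D-box motifs, where Nfil3 opposes them, so that the transcripts of a tissue change with the hour. Genes of the HoxD cluster are switched on in order along the body axis, and the last of them mark the hindmost gut and the urogenital region, while Cdx2 maintains intestinal identity in the epithelium.

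Promoter sequences of clock genes are shown here because these genes held the largest increases. They were taken from RefSeq (GRCm38.p6), from 250 bases before to 50 bases after the start of a transcript. Of 26 clock genes listed, 22 had a promoter there, 30 promoters in all. The E-box CACGTG, which reads the same on both strands, was in 8 promoters of 7 genes, against 7.15% of all 32851 promoters. The D-box, searched as TTATGTAA and TTACGTAA on both strands, was in 1 gene, against 1.06% of all promoters. Capitals mark E-boxes in the promoters of Ciart (chr3:95882179-95882478, minus strand), Tef (chr15:81802423-81802722 and chr15:81811164-81811463, plus strand) and Bhlhe41 (chr6:145865371-145865670, minus strand), and D-boxes in that of Per3 (chr4:151044616-151044915, minus strand). The promoter of Dbp (chr7:45704997-45705296, plus strand), the gene with the largest increase, held none of these letters in this window.
Ciart: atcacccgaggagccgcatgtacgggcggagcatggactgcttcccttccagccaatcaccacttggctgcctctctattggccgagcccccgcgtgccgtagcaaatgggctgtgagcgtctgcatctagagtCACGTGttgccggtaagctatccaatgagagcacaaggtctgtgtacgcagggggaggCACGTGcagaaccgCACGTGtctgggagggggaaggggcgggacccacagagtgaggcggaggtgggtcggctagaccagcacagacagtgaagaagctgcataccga
Tef, upstream start: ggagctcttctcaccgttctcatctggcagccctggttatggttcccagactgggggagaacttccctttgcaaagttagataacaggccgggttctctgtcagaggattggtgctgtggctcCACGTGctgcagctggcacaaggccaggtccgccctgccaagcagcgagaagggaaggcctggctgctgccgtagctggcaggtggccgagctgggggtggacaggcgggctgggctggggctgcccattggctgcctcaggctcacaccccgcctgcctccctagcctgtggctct
Tef, downstream start: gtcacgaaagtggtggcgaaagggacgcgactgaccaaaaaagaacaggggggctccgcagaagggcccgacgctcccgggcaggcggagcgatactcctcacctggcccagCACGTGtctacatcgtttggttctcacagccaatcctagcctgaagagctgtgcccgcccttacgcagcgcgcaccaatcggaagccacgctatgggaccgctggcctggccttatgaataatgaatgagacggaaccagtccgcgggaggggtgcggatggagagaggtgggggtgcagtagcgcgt
Bhlhe41: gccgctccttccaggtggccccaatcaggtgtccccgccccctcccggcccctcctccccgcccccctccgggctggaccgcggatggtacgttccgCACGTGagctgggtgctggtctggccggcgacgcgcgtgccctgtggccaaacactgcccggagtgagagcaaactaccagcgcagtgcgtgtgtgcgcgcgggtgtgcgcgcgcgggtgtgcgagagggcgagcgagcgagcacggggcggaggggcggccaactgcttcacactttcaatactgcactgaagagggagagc
Per3: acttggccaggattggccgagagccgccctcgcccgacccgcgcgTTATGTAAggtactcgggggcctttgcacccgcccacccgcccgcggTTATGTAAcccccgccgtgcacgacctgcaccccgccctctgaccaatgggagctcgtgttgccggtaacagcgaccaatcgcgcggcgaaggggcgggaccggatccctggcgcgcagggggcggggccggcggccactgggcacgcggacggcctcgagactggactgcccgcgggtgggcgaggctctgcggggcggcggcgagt
Dbp: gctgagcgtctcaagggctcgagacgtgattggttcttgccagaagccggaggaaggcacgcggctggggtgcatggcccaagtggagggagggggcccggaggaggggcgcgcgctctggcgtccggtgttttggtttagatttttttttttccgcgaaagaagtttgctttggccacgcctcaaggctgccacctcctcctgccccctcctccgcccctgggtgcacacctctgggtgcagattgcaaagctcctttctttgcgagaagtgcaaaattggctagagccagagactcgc
Ciart carried 3 E-boxes, at 116, 58 and 44 bases before the start. Tef carried 1 E-box at each start, 127 and 138 bases before it, and that of Bhlhe41 lay 153 bases before the start. The 2 D-boxes of Per3 lay 205 and 158 bases before the start. The other 4 genes with an E-box, Per1, Cry1, Tspan4 and Lonrf3, did not pass in the comparison, and Nr1d1, Nr1d2 and Hlf, which did, held none in this window. A match is a description of the letters and was not set against any binding data.

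Of 19938 genes tested, 1400 (7.02%) differed between chronic and acute controls at an adjusted p under 0.05 in limma's test. Of these, 698 (3.5%) were higher and 702 (3.52%) lower in chronic controls. At an unadjusted p under 0.05 there were 4514 (22.6%). The differences were small: the median was 0.31 among the higher genes and -0.38 among the lower genes, beside 0.03 over all genes, and 10 genes (0.0502%) rose and 4 (0.0201%) fell by at least 2-fold. The genes at the top of the increases were Dbp, Hoxd13, Nr1d1, Hoxd12, Hoxd11 and Ciart, and those at the top of the decreases were the small nucleolar RNAs Snord87, Snord61 and Snord104. All 5 chronic controls lay above all 3 acute controls in 2316 genes (11.6%) and below them in 2250 (11.3%).

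**Figure D1:**
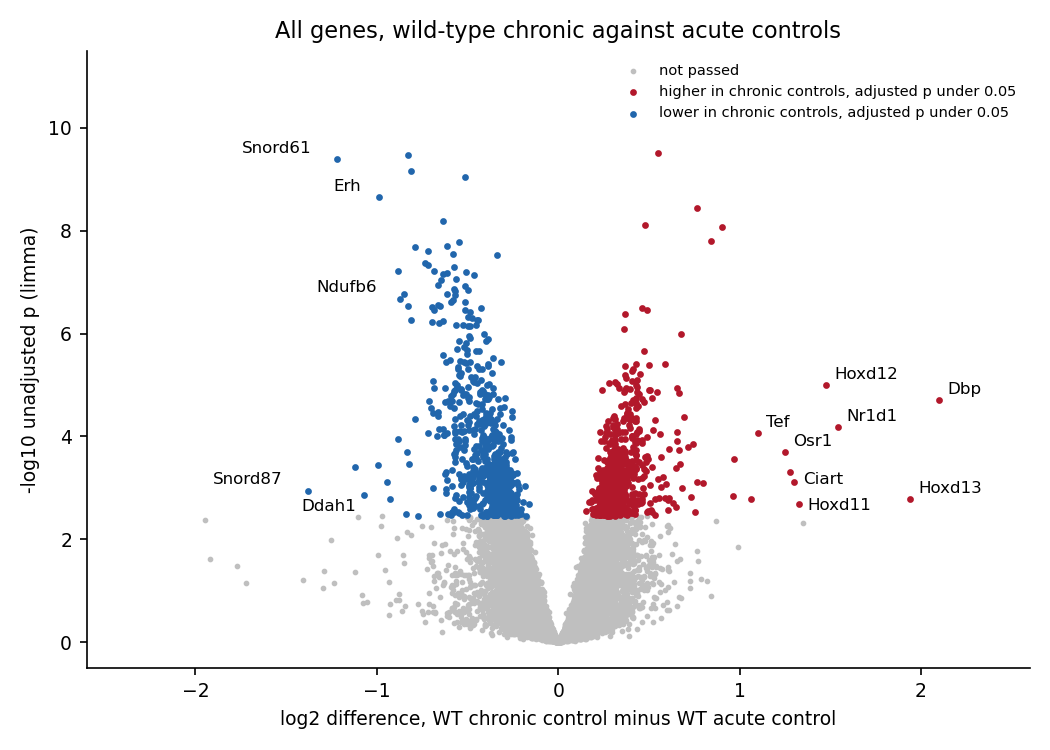
Difference of each of 19938 genes between wild-type chronic and acute controls (x axis, log2, chronic minus acute) against the -log10 of limma's unadjusted p (y axis). Red points are the 698 genes that passed at an adjusted p under 0.05 and were higher in chronic controls, blue points the 702 that were lower, and grey points the rest. Dbp at 2.10 and Hoxd13 at 1.94 lie furthest right among the genes that passed, and the smallest p among the labelled genes is that of Snord61.

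The count depended on single arrays. It was 380 without acute control 3, 393 without acute control 2, 853 without chronic control 1 and 914 without chronic control 4. With animal series as a random block it was 320, as it was for the 2 chronic controls of series 14 alone, against 963 for the 3 of series 11 alone. The 702 lower genes held their sign in all cases when each series was used alone. Of the 702, 170 passed with series 11 alone and also with series 14 alone, 232 with series 11 only and 49 with series 14 only. The 698 higher genes held their sign with series 11 alone, and 695 did so with series 14 alone. Of the 698, 58 passed with both, 341 with series 11 only and 26 with series 14 only. The same chronic and acute arrays chose these genes, so the kept signs are a description and no test. Of the genes that passed, 577 of the 698 higher (82.7%) and 675 of the 702 lower (96.2%) had no overlap between the groups, a description only, since these arrays chose them.

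Circadian clock genes stood among the largest increases and were high in chronic controls of both animal series. Dbp, an output factor of the clock, had signals of 9.70, 10.33, 11.12, 11.49 and 9.49 in chronic controls, against 8.45, 8.18 and 8.34 in acute controls. Every chronic control was more than 1 log2 unit above the highest acute control. The difference was 2.10 ± 0.42 (adjusted p = 0.00226 in limma's fit, a fold of 4.29), and it was 2.17 with series 14 alone and 2.06 with series 11 alone. The call for Dbp held in all 18 alternatives run.

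Nr1d1, the receptor that represses Arntl, had 12.40, 12.57, 12.42, 12.33 and 11.60 in chronic controls, against 11.29, 10.16 and 10.72 in acute controls. The groups did not overlap, with chronic control 5 nearest to the acute controls. The difference was 1.54 ± 0.34 (adjusted p = 0.00488), but the call ended without acute control 2 (adjusted p = 0.0736), with series 14 alone (0.148) and with the random block (0.055). Its relative Nr1d2 averaged 10.13 ± 0.40 in chronic controls and 9.16 ± 0.25 in acute controls (SD, n = 5 and 3), a difference of 0.96 ± 0.28 (adjusted p = 0.0311).

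Ciart, a repressor that acts on Arntl and Clock, had 7.62, 7.84, 8.58, 9.20 and 7.59 in chronic controls, against 7.13, 6.85 and 6.60 in acute controls. Tef, an output factor related to Dbp, had 9.06, 9.19, 9.89, 9.96 and 9.03, against 8.39, 8.34 and 8.25. In both genes, as in Dbp, chronic controls 3 and 4 were the highest, although they belong to different animal series. Ciart rose by 1.30 ± 0.35 (adjusted p = 0.0209) and Tef by 1.10 ± 0.25 (adjusted p = 0.0058). Hlf, the other member of that family of output factors, rose by 0.76 ± 0.21 (adjusted p = 0.0208), and Bhlhe41, a repressor that binds E-boxes, by 0.65 ± 0.20 (adjusted p = 0.0402).

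These smaller calls rested on few arrays. Ciart did not pass without chronic control 4 (adjusted p = 0.068), acute control 2 (0.0898) or acute control 3 (0.135). Nr1d2 did not pass without any one of chronic controls 2 to 4 or acute controls 2 and 3 (0.0519 to 0.146), Hlf without chronic control 3 or 4 or any 1 acute control (0.0524 to 0.112), and Bhlhe41 without any one of chronic controls 2 to 4 or of the acute controls (0.0522 to 0.167). None of these 4 genes passed with series 14 alone or with the random block (0.0694 to 0.239), and Ciart (0.0612) and Bhlhe41 (0.0702) missed with series 11 alone too. Tef passed with each array left out, with series 14 alone (0.0424) and with series 11 alone (0.0197), and missed the threshold with the random block (0.0642).

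Counted by role, 4 of 10 repressors and 4 of 11 outputs were higher and none lower, beside 3.5% of all genes higher, with Ciart in both lists and medians of 0.59 and 0.49. With the random block 0 of the 10 and 1 of the 11 were higher, beside 102 of all 19938 genes. None of 4 activators (0 of 4) passed in limma's test, with 1 of them lower at an unadjusted p under 0.05. That gene was Arntl, with 9.69, 9.70, 8.87, 8.62 and 9.93 in chronic controls, against 10.04, 10.33 and 10.39 in acute controls. All chronic controls lay below all acute controls, and the difference of -0.89 ± 0.32 did not pass (adjusted p = 0.0848). Nfil3, which opposes Dbp at the D-box, had 7.68, 7.60, 7.27, 6.99 and 7.91 in chronic controls, against 8.41, 8.60 and 8.40 in acute controls (difference -0.98 ± 0.33, adjusted p = 0.065). In both genes chronic controls 3 and 4 were the lowest, the same animals in which Dbp, Ciart and Tef were highest.

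The other clock genes did not pass. Fmo2, an oxidising enzyme in the list of outputs, differed by 0.79 ± 0.40 with overlapping groups (adjusted p = 0.244). Per3 was higher in every chronic control (difference 0.77 ± 0.30, adjusted p = 0.119), as was Bhlhe40 (0.45 ± 0.14, adjusted p = 0.0513), but neither passed. Cry1, a repressor partner of the Per proteins, averaged 8.05 ± 0.31 in chronic controls and 8.66 ± 0.36 in acute controls (SD, n = 5 and 3), with a difference of -0.61 ± 0.20 (adjusted p = 0.0556). Per1 (0.19 ± 0.21, adjusted p = 0.647), Clock (0.10 ± 0.15, adjusted p = 0.757) and Wee1 (0.04 ± 0.16, adjusted p = 0.915) had overlapping groups. The hour of collection, through which these transcripts are known to cycle, is not given in the sources used here, so its part in the result was not tested.

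**Figure D2:**
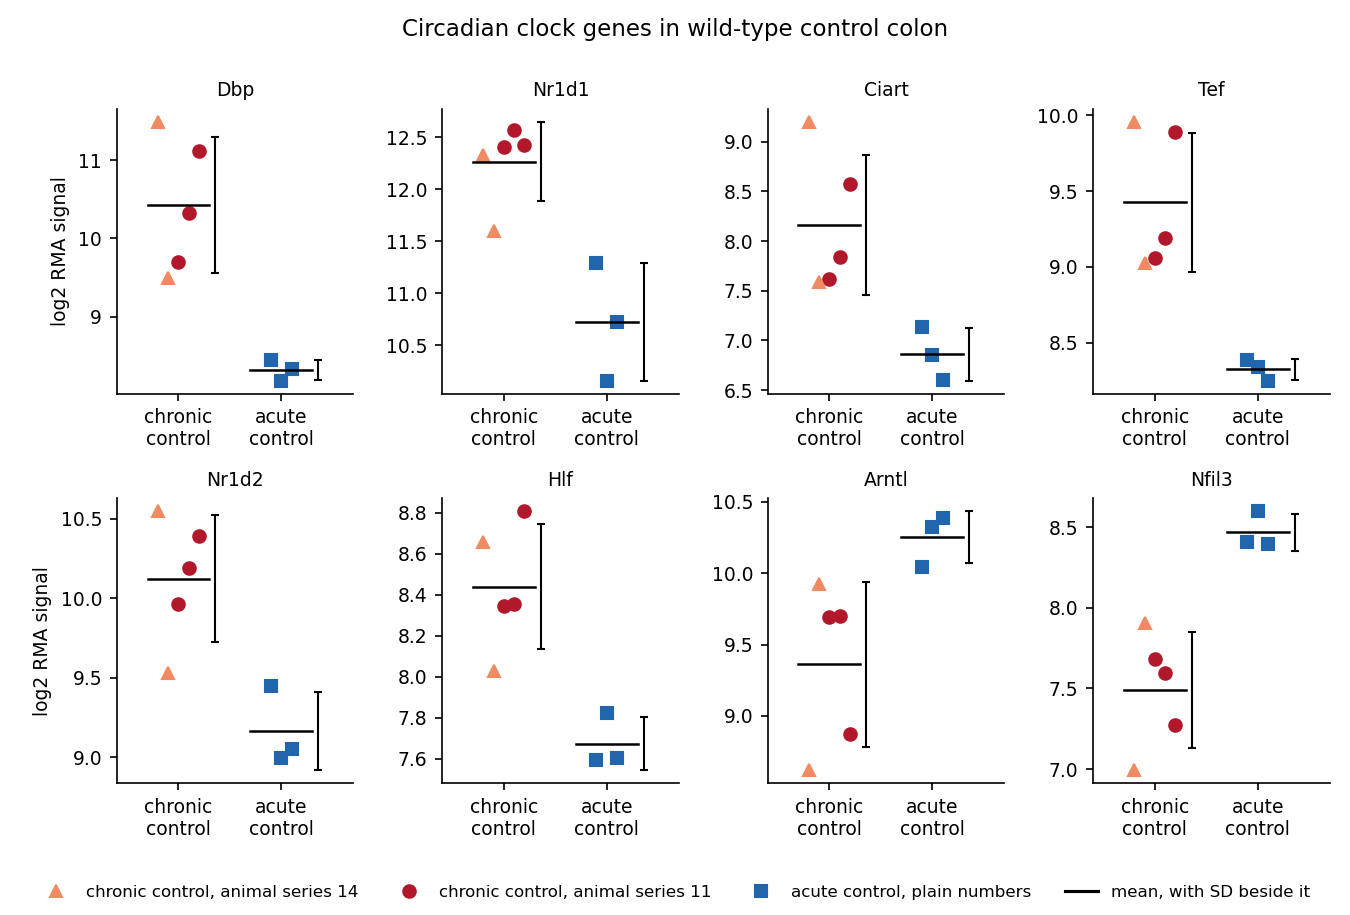
Log2 RMA signal (y axes, each panel on its own scale) of 8 clock genes in wild-type chronic controls (left, series 14 as triangles and series 11 as circles) and acute controls (right, squares); lines are group means and bars the SD (n = 5 and 3). The chronic controls of both series lie above the acute controls for Dbp, Nr1d1, Ciart, Tef, Nr1d2 and Hlf, and below them for Arntl and Nfil3.

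The posterior HoxD genes were the other large increase, and they were high in 3 of the 5 chronic controls. Hoxd13, the last gene of the cluster, had 8.81 and 9.13 in the chronic controls of series 14 and 11.37, 11.42 and 11.48 in those of series 11, against 8.66, 8.11 and 8.72 in acute controls. Hoxd12 had 7.38 and 7.24 in series 14 and 8.87, 9.09 and 9.26 in series 11, against 7.09, 6.66 and 6.92 in acute controls. The 3 animals of series 11 thus lay over 2 log2 units above the rest for Hoxd13, and the 2 of series 14 lay close above the acute controls. Hoxd11 had 7.87 and 8.11 in series 14 and 10.09, 10.27 and 10.22 in series 11, against 7.87, 7.92 and 8.17 in acute controls, so its groups overlapped.

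Over all 5 chronic controls the difference was 1.94 ± 0.57 for Hoxd13 (adjusted p = 0.0331), 1.48 ± 0.28 for Hoxd12 (adjusted p = 0.00157) and 1.33 ± 0.40 for Hoxd11 (adjusted p = 0.0371). With the chronic controls of series 14 alone none of the 3 passed in limma's test: the differences were 0.47 for Hoxd13 (adjusted p = 0.823), 0.42 for Hoxd12 (0.225) and 0.01 for Hoxd11 (0.998). With only the 8 arrays compared in the fit, all 3 missed the threshold (0.0592 for Hoxd13, 0.051 for Hoxd12 and 0.121 for Hoxd11), and Hoxd13 (0.141) and Hoxd11 (0.192) missed it with the random block. With series 11 alone the differences were 2.92 (0.00109), 2.18 (1.23e-10) and 2.21 (2.6e-05). Hoxd13 and Hoxd11 also lost their calls without any one of chronic controls 1 to 3 or of the acute controls (adjusted p of 0.0559 to 0.159 for Hoxd13 and 0.0852 to 0.135 for Hoxd11).

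Along the cluster on chromosome 2, where the order is Evx2, Hoxd13, Hoxd12, Hoxd11, Hoxd10, Hoxd9 and Hoxd8, the series 14 minus series 11 difference was -0.59 in Evx2, between -2.45 and -1.77 in Hoxd13 to Hoxd10, -0.51 in Hoxd9 and -0.19 in Hoxd8. Hoxd10 (8.14 and 8.27 in series 14, 10.26, 10.37 and 10.32 in series 11, against 8.26, 7.93 and 8.17 in acute controls) showed the same split, with a difference of 1.35 ± 0.45 (adjusted p = 0.0596). Hoxd9, next in line, had 7.01 and 7.01 in series 14 and 7.31, 7.68 and 7.57 in series 11, against 6.91, 6.91 and 7.00 in acute controls (difference 0.37 ± 0.15, adjusted p = 0.134). Hoxd8 did not pass (0.13 ± 0.34, adjusted p = 0.872). On the other flank Evx2, a homeobox gene beside Hoxd13, had 7.91 and 7.95 in series 14 and 8.52, 8.58 and 8.47 in series 11, against 7.77, 7.76 and 7.73 in acute controls (difference 0.53 ± 0.11, adjusted p = 0.00406). Of the 19 measured genes in the list of posterior Hox and position genes, Hoxd11, Hoxd12 and Hoxd13 rose, beside 3.5% of all genes, none fell, and the median was 0.18.

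Hoxb13 and Hoxa13, the last genes of 2 other clusters, had overlapping groups. Hoxb13 had 11.45, 11.62, 11.65, 11.56 and 11.64 in chronic controls, against 11.74, 11.41 and 11.80 in acute controls (difference -0.07 ± 0.90, adjusted p = 0.979). Hoxa13 averaged 10.35 ± 0.22 in chronic controls and 10.06 ± 0.13 in acute controls (SD, n = 5 and 3; difference 0.30 ± 0.42, adjusted p = 0.739). Hoxb13 varied little within either group (SD 0.08 in chronic controls and 0.21 in acute controls), and its SE is that of the fit shared by all 37 arrays. Of 37 Hox genes collected by symbol after their values were seen, 5 rose, beside 3.5% of all genes. This adds Hoxc11 (0.28 ± 0.08, adjusted p = 0.0377) and Hoxc4 (0.27 ± 0.07, adjusted p = 0.017 in limma's test) to Hoxd11 to Hoxd13. With series 14 alone 0 of the 37 rose, with series 11 alone 6 and with the random block 1, beside 88, 522 and 102 of all 19938 genes. In KO mice 0 of the 37 rose, beside 2.2% of all genes.

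Single epithelial genes had low values in the same 3 animals. Of the 9 colon markers Cdx2 differed most, while the other 8 had differences of -0.14 to 0.07, and the colonocyte transport and goblet lists had no call and medians of -0.11 and -0.18 with series 11 alone. Cdx2 had 9.93 and 10.37 in the chronic controls of series 14 and 8.44, 8.78 and 8.74 in those of series 11, against 10.40, 10.75 and 10.35 in acute controls (difference -1.25 ± 0.46, adjusted p = 0.0912). Fabp2, a fatty acid binding protein of enterocytes, had 10.34 and 9.90 in series 14 and 7.96, 7.86 and 7.60 in series 11, against 10.02, 11.27 and 10.07 in acute controls (difference -1.72 ± 0.92, adjusted p = 0.264). Neither passed over all 5 animals. With series 11 alone 1 of the 9 colon markers passed as lower in limma's test, and with series 14 alone 0. Fabp2 belongs to a list of 21 small intestinal genes with a median of 0.08 (0.09 with series 11 alone), none of which passed in limma's test. At an unadjusted p under 0.05, 3 of the 21 were higher and 0 lower, beside 22.6% of all genes in either direction. Ddah1, which breaks down an inhibitor of nitric oxide synthase, passed at -1.07 ± 0.31 (adjusted p = 0.0298) with 10.17 and 10.19 in series 14 and 8.43, 8.62 and 8.87 in series 11, against 10.09, 10.67 and 10.23 in acute controls. Its difference was -0.15 with series 14 alone (adjusted p = 0.902), and it lost its call without any one of chronic controls 1 to 3 or acute controls 2 and 3 (0.0657 to 0.176).

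The mean smooth muscle signal was highest in these 3 animals, although no gene of the list passed between series 14 and 11 in limma's test. The mean of 17 smooth muscle contractile genes was 11.09 and 11.24 in series 14 and 11.58, 11.59 and 11.64 in series 11, against 11.16, 11.12 and 11.24 in acute controls. Csrp1, a LIM protein of smooth muscle, rose by 0.49 ± 0.12 (adjusted p = 0.0115), and no other member passed (1 of 17, beside 3.5% of all genes higher). At an unadjusted p under 0.05, 4 of the 17 were higher and 0 lower, beside 22.6% of all genes in either direction. The list's median was 0.27, or 0.41 with series 11 alone and 0.03 with series 14 alone. In bulk tissue, more cells of a type and more RNA per cell cannot be told apart, and the part of muscle content in the Hox result was not tested.

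The 2 sets of wild-type chronic controls were also compared with each other. Series 14 differed from series 11 in 19 genes (0.0953%), 2 higher (0.01%) and 17 lower (0.0853%), and in 928 genes (4.65%) at an unadjusted p under 0.05. The count was 5 without chronic control 4 and 6 without chronic control 5. Series 14 minus series 11, Hoxd12 differed by -1.77 ± 0.17 (adjusted p = 1.06e-07), Hoxd11 by -2.20 ± 0.31, Hoxd10 by -2.11 ± 0.42 and Evx2 by -0.59 ± 0.10, while Hoxd13 (-2.45 ± 0.57) did not pass (adjusted p = 0.11). Tnnt2, the troponin T of heart muscle, had 9.11 and 9.34 in series 14 and 10.51, 10.50 and 10.52 in series 11, and Tbx5, a T-box factor of heart and forelimb, 6.14 and 6.20 in series 14 and 6.95, 6.96 and 6.90 in series 11. Chchd10, a protein of the mitochondrial membrane folds, set series 14 apart instead, with 8.77 and 8.83 in series 14 and 11.10, 11.14 and 11.17 in series 11, beside 10.95, 10.93 and 10.48 in acute controls. The 2 genes higher in series 14 were Ddah1 (1.54 ± 0.27) and Vpreb3, a gene of the B cell line (2.13 ± 0.36). These genes outside the naming rule were chosen after their values were seen.

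**Figure D3:**
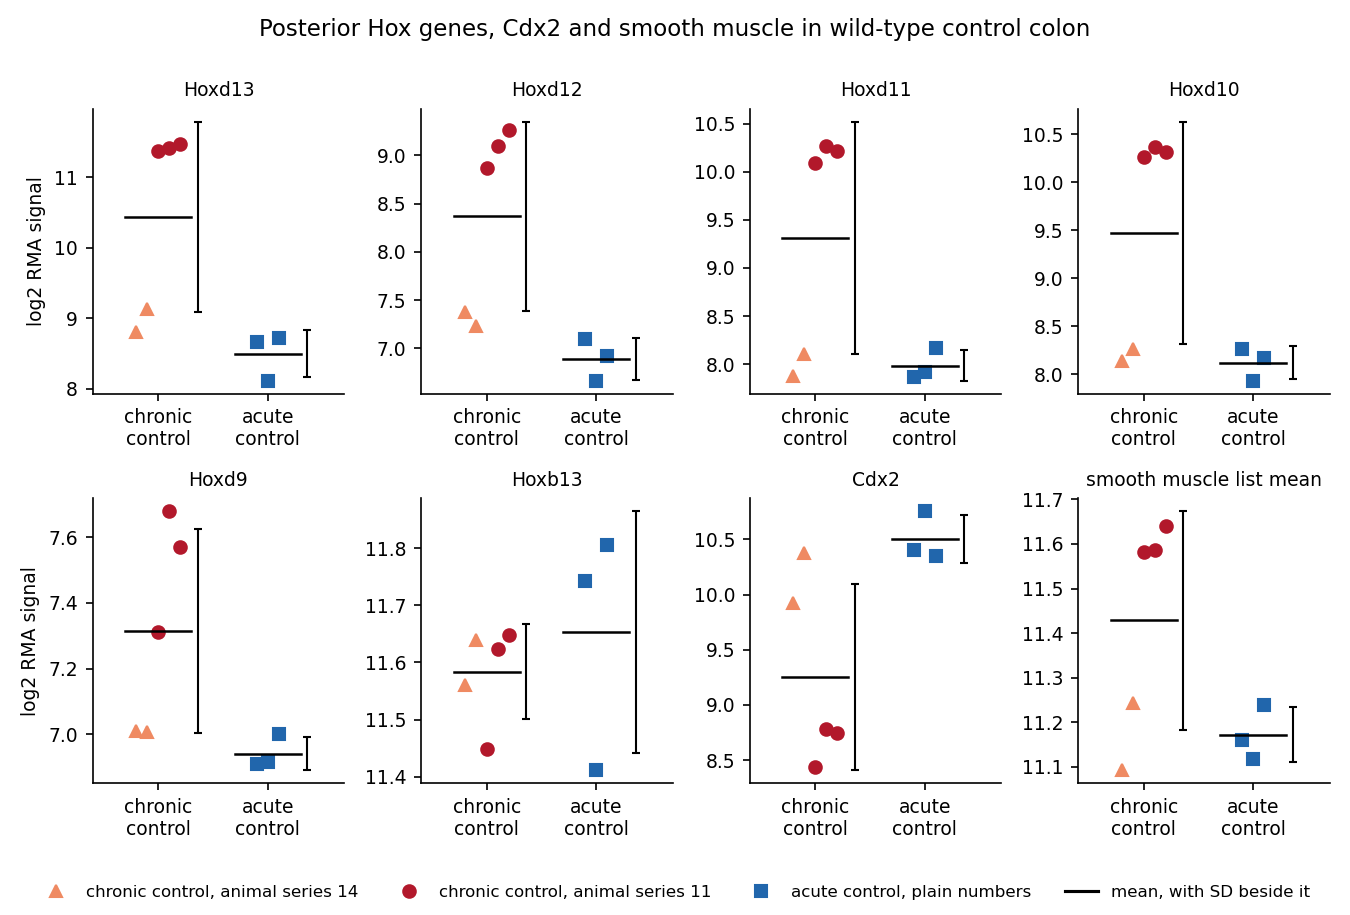
Log2 RMA signal (y axes, each panel on its own scale) of posterior Hox genes and Cdx2, and the mean over 17 smooth muscle genes, in wild-type chronic controls (left, series 14 as triangles and series 11 as circles) and acute controls (right, squares); lines are group means and bars the SD (n = 5 and 3). The 3 circles stand apart from the triangles and squares for Hoxd10 to Hoxd13, Cdx2 and smooth muscle, and do not for Hoxb13.

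Across all 37 arrays, these 3 animals had the highest Hoxd13 and Hoxd12 signals. Wild-type chronic DSS mice, which all carry numbers of series 11, had 7.33 to 8.56 for Hoxd13 (mean 7.80 ± 0.54, SD, n = 5), and KO chronic controls, all of series 14, had 8.35 to 10.27 (mean 8.89 ± 0.79, SD, n = 5). The high HoxD signal was thus not found in every array of series 11.

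Other genes were high in the chronic controls of both sets. Osr1, a zinc finger factor of mesenchyme, had 9.36 and 9.86 in series 14 and 10.50, 10.46 and 10.61 in series 11, against 9.02, 8.48 and 9.23 in acute controls (difference 1.25 ± 0.30, adjusted p = 0.0102). Mir145a, a microRNA gene known from smooth muscle, had 9.69 and 10.02 in series 14 and 10.26, 10.04 and 10.40 in series 11, against 8.52, 8.92 and 8.97 in acute controls (1.28 ± 0.33, adjusted p = 0.0165). Tns4, a focal adhesion protein of epithelia, had 12.03 and 11.44 in series 14 and 11.78, 11.99 and 12.15 in series 11, against 11.02, 10.70 and 11.00 in acute controls (0.97 ± 0.24, adjusted p = 0.0124). All 3 had no overlap between chronic and acute controls in either series, yet none passed with series 14 alone in limma's test (adjusted p of 0.364 for Osr1, 0.227 for Mir145a and 0.177 for Tns4) or with the random block (0.103, 0.167 and 0.108, in the same order). Osr1 also missed without acute control 2 (0.105), Tns4 without acute control 2 (0.0905), and Mir145a without any 1 of the acute controls (0.0572 to 0.0628). Inmt, an indole methylating enzyme, rose by 1.06 ± 0.31 (adjusted p = 0.0327) and did not pass without chronic control 1 or 3 or any 1 acute control (0.0739 to 0.139).

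Among the decreases were 9 of 54 small nucleolar and Cajal body RNAs, 4 of 14 listed ribosomal protein genes and 5 of 22 listed oxidative phosphorylation genes, beside the 3.52% of all genes that fell. None of 20 listed RNA-binding and splicing factor genes passed in limma's test, and their median was 0.03. At an unadjusted p under 0.05, 2 of the 20 were higher and 0 lower, beside 22.6% of all genes in either direction. Snord61, a box C/D RNA of the kind that guides methylation of ribosomal RNA, had 5.31, 5.09, 4.76, 4.82 and 4.79 in chronic controls, against 6.01, 6.17 and 6.34 in acute controls. Erh, a small conserved cofactor of RNA processing, had 9.69, 9.80, 9.95, 9.92 and 9.95, against 10.84, 10.87 and 10.82. Neither gene showed any overlap or a step between the animal series. Snord61 fell by 1.22 ± 0.14 (adjusted p = 2.69e-06) and Erh by 0.99 ± 0.12 (adjusted p = 7.42e-06).

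Other small RNAs fell with a wider spread. Snord87 fell by 1.38 ± 0.39 (adjusted p = 0.0268), Snord104 by 1.12 ± 0.28 (adjusted p = 0.0147), Snora20, of the box H/ACA class, by 0.99 ± 0.25 (adjusted p = 0.0141) and Scarna13, a Cajal body RNA, by 0.94 ± 0.25 (adjusted p = 0.0209). Gas5, a transcript whose introns hold small nucleolar RNAs, had 10.06, 10.10, 10.13, 9.73 and 10.10 in chronic controls, against 11.17, 10.71 and 10.83 in acute controls, and fell by 0.88 ± 0.20 (adjusted p = 0.00675). The groups did not overlap in any of these 5 genes. Gas5 and Erh passed in all 18 alternatives. Snord61 passed in the 17 that kept it, since its signal lay among the dimmest 33.3% of genes, which 1 alternative removed. Snora20 lost its call without acute control 2 (0.12), Snord104 without acute control 2 (0.0718) or 3 (0.0508), Snord87 without chronic control 4 or any 1 acute control (0.0649 to 0.113) and Scarna13 likewise (0.0598 to 0.0955), as well as with the random block (0.0963). With series 11 alone Snord87, Snord104, Snora20 and Scarna13 all missed (0.0514 to 0.106), and with series 14 alone Snord87, Snora20 and Scarna13 did (0.0625 to 0.0878).

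In the respiratory chain, Ndufb6, an accessory subunit of complex I, had 10.72, 10.97, 10.73, 10.83 and 10.77 in chronic controls, against 11.65, 11.67 and 11.71 in acute controls. The spread within either group was far smaller than the gap between them, and the difference was -0.87 ± 0.13 (adjusted p = 0.000113). Ndufa4 fell by 0.70 ± 0.14 (adjusted p = 0.00286), Ndufb5 by 0.57 ± 0.14 (adjusted p = 0.0106) and Ndufa1 by 0.53 ± 0.17 (adjusted p = 0.0483). Ndufb5 lost its call without acute control 3 (0.0677), with series 14 alone (0.13) and with the random block (0.111), and Ndufa1 without any 1 of the 8 arrays (0.0669 to 0.219). Of 22 oxidative phosphorylation genes listed and measured, 5 fell (Cox5a and Atp5c1 beside these 3), none rose, 11 were lower and 0 higher at an unadjusted p under 0.05, and the median was -0.23. Over all genes 3.52% fell, and 22.6% had an unadjusted p under 0.05. With series 14 alone 1 of the 22 fell, with series 11 alone 3, and with the random block 2. Over all 19938 genes 232, 441 and 218 fell in these settings, in the same order. The mean of the list by array was 11.01, 11.06, 11.00, 11.06 and 11.01 in chronic controls, against 11.27, 11.29 and 11.33 in acute controls.

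Ribosomal protein genes were lower by smaller steps. Rps4x had 11.74, 11.91, 11.77, 11.70 and 11.70 in chronic controls, against 12.31, 12.21 and 12.30 in acute controls, and fell by 0.51 ± 0.07 (adjusted p = 5.42e-05). Rps3 fell by 0.47 ± 0.08 (adjusted p = 0.000189) and Rpl19 by 0.31 ± 0.06 (adjusted p = 0.000822). Of 14 ribosomal protein genes listed and measured, 4 fell and none rose, beside 3.52% of all genes that fell, and the median was -0.16. At an unadjusted p under 0.05, 7 of the 14 were lower and 0 higher, beside 22.6% of all genes in either direction. Rps6, Rpl10 and Rplp0 lay within 0.06 of no difference.

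**Figure D4:**
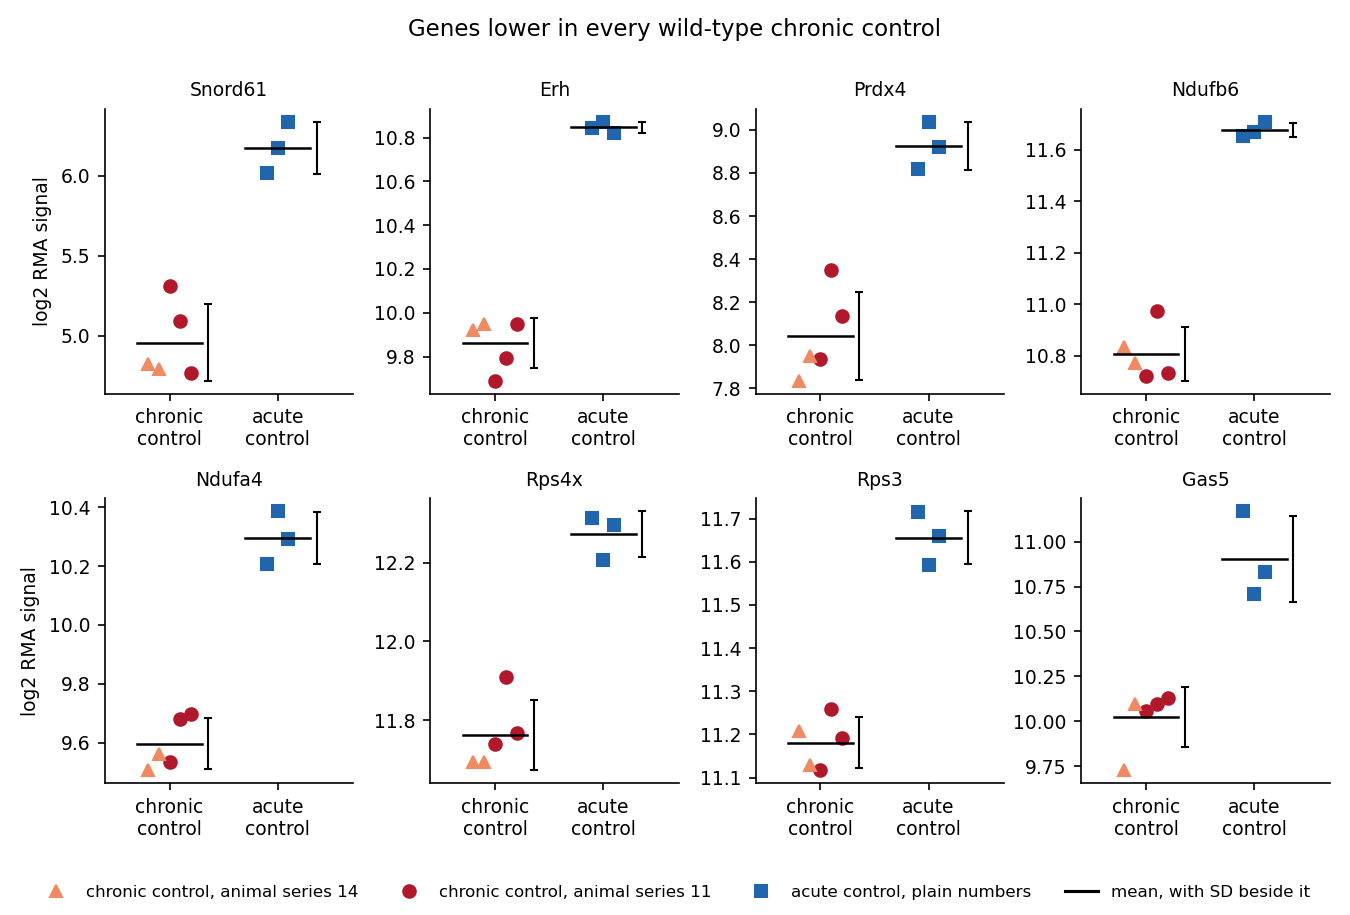
Log2 RMA signal (y axes, each panel on its own scale) of 8 genes that were lower in wild-type chronic controls (left, series 14 as triangles and series 11 as circles) than in acute controls (right, squares); lines are group means and bars the SD (n = 5 and 3). All chronic controls of both series lie below all acute controls in each panel, for Erh at 9.69 to 9.95 against 10.82 to 10.87.

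Gene families collected by their symbols, after the values of these genes had been seen, extended the description. The share of members that fell was 35 of 77 mitochondrial ribosomal protein genes (45.5%, median -0.29), 9 of 17 ATP synthase genes (52.9%, median -0.37), 9 of 19 core proteasome subunits (47.4%, median -0.25), 20 of 59 cytosolic ribosomal protein genes (33.9%, median -0.19), 13 of 43 complex I subunits and assembly factors (30.2%, median -0.26) and 9 of 54 small nucleolar and Cajal body RNAs (16.7%, median -0.35). No member of the 6 families rose in limma's test, and 5 members in all 6 were higher at an unadjusted p under 0.05. Over all genes 3.52% fell. Fewer members passed by animal series: with series 14 alone 13 mitochondrial ribosomal, 1 ATP synthase, 6 proteasome, 14 ribosomal, 6 complex I and 3 small RNA genes fell. With the random block these counts were 11, 4, 4, 12, 5 and 7, and with series 11 alone 22, 6, 4, 15, 7 and 2, in the same order. Over all 19938 genes 232 fell with series 14 alone, 218 with the random block and 441 with series 11 alone, against 702 in the main fit. The 6 medians were below 0 with series 14 alone (-0.45 to -0.20), with series 11 alone (-0.34 to -0.19), with the random block (-0.48 to -0.18) and after cyclic loess normalization (-0.39 to -0.18). Microarray signal gives no level of protein or of ribosomes.

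Prdx4, a peroxiredoxin of the endoplasmic reticulum, fell by 0.88 ± 0.13 (adjusted p = 5.42e-05), with 7.94, 8.35, 8.13, 7.83 and 7.95 in chronic controls, against 8.82, 9.04 and 8.92 in acute controls. The call held in all 18 alternatives. H2ac4, a histone gene, fell by 0.93 ± 0.27 (adjusted p = 0.0328) and Slc1a4, a neutral amino acid transporter, by 0.84 ± 0.26 (adjusted p = 0.0475). With the random block H2ac4 (0.217) and Slc1a4 (0.161) lost their calls. H2ac4 also lost it without any one of chronic controls 1 to 4 or acute controls 2 and 3 (0.052 to 0.202), and Slc1a4 without any one of chronic controls 1 to 4 or of the acute controls (0.0582 to 0.207).

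In most other gene groups of the colon no gene passed. This held in limma's test, with the fit to the whole series, for 36 of 49 lists, with 618 measured entries. Of these, 20 were higher and 19 lower at an unadjusted p under 0.05, beside 22.6% of all genes in either direction. The 36 lists were picked for having no call, which lowers that count by construction. They cover colonocyte transport, goblet, enteroendocrine, cell cycle, B and T cell, macrophage, neutrophil, cytokine, collagen and metalloproteinase genes. With only the arrays compared in the fit, some of these lists had calls. That fit called 1119 of all 19938 genes higher and 1440 lower. Of 27 collagen genes 5 were higher and 1 lower, of 22 metalloproteinases and their inhibitors 4 and 4, and of 16 enteroendocrine genes 0 and 5. Of 30 cytokine genes 0 were higher and 3 lower, and of 25 phase II detoxification enzymes, also among the 36 lists, 0 and 8. Colonocyte transport genes had 1 and 1 of 25, and B cell genes 0 and 0 of 19. The absence of calls thus depended on the fit for some of the 36 lists, as the count over all genes did. The 25 colonocyte transport genes had a median of -0.06 and the 29 cell cycle genes one of -0.13. Among other tissues a colon sample could hold, skeletal muscle genes had 3 of 15 members higher, beside 3.5% of all genes. At an unadjusted p under 0.05, 8 of 15 were higher, beside 22.6% of all genes in either direction. Passing were Actn3 by 0.40 ± 0.08, Tnnc2 by 0.34 ± 0.10 and Tnni2 by 0.30 ± 0.09. Means of the skeletal muscle list were 7.21 to 7.43 in chronic controls, against 7.09 to 7.14 in acute controls. Tnnc2 and Tnni2 lost their calls without single arrays, Tnnc2 without any array but chronic control 3 (0.051 to 0.208) and Tnni2 without chronic control 1 or 4 or acute control 2 or 3 (0.0593 to 0.288). Both also missed with the random block (0.147 and 0.0826), with series 11 alone (0.0862 and 0.0932) and with series 14 alone (0.189 and 0.0907). Actn3 missed with series 14 alone (0.138). With the random block 1 of the 15 was higher, and with series 14 alone 0, beside 102 and 88 of all 19938 genes. Adipocyte genes varied between animals in both groups, with list means of 7.78 to 9.62 in chronic controls, against 8.10 to 8.58 in acute controls, and none of 15 passed, with 3 higher at an unadjusted p under 0.05.

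Timp1, the gene removed in the knockouts, had 7.28, 7.09, 7.07, 6.99 and 7.21 in chronic controls, against 7.56, 7.56 and 7.76 in acute controls. The groups did not overlap, but the difference of -0.50 ± 0.39 did not pass (adjusted p = 0.488) with the SE of the fit shared by all 37 arrays. In 1 of 18 alternatives Timp1 passed in limma's test (adjusted p = 0.00528). The chronic controls averaged 7.13 ± 0.12 and the acute controls 7.63 ± 0.12 (SD, n = 5 and 3), beside the 7.14 ± 0.29 (SD, n = 5) of KO chronic controls and 7.01 ± 0.10 (SD, n = 3) of KO acute controls, which lack the gene. Timp2 (0.48 ± 0.18, adjusted p = 0.0912), Timp3 (0.38 ± 0.27, adjusted p = 0.446) and Timp4 (0.08 ± 0.29, adjusted p = 0.908) did not pass. Timp2 (lowest adjusted p 0.000421 in limma's test) and Timp3 (0.0342) each passed in 2 of 18 alternatives, and Timp4 in 0.

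The same comparison in Timp1 knockouts uses none of these arrays, with 5 KO chronic controls, all of series 14, and 3 KO acute controls of a further series. There 894 genes (4.48%) passed, 438 higher (2.2%) and 456 lower (2.29%), against 4324 (21.7%) at an unadjusted p under 0.05. This count too rested on single arrays: it was 518, 424 and 426 without KO chronic control 1, 3 or 4, and 190 and 119 without KO acute control 1 or 2, and KO acute control 2 is the one control array with the Y-linked signal of a male. Of the genes called in each genotype, 257 were shared, 18.4% of the wild-type calls and 28.7% of the KO calls, and 256 of the 257 went the same way. Of the 1400 wild-type calls, 1270 had the same sign in KO mice. Across genes the 2 differences had a Spearman rho of 0.472, with genes not independent of each other.

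Many of the decreases passed in the knockouts too, and the clock and HoxD genes that rose in wild-type mice did not. Snord61 fell by 1.05 ± 0.14 in KO mice (adjusted p = 0.000222), Ndufb6 by 0.64 ± 0.13 (adjusted p = 0.00619), Gas5 by 0.69 ± 0.20 (adjusted p = 0.0418), Erh by 0.42 ± 0.12 (adjusted p = 0.0389) and Rps4x by 0.29 ± 0.07 (adjusted p = 0.0193). Prdx4 (-0.21, adjusted p = 0.334) and Scarna13 (-0.26, adjusted p = 0.591) did not pass there. In KO mice the families had 13 of 77 mitochondrial ribosomal, 5 of 17 ATP synthase, 8 of 19 proteasome, 11 of 59 ribosomal, 5 of 43 complex I and 10 of 54 small RNA genes lower, beside 2.29% of all genes. The proteasome family also had 1 gene higher, beside 2.2% of all genes. With the random block 38 KO calls were left over all genes, and the families were not recounted there. By contrast Dbp differed by -0.70 ± 0.42 (adjusted p = 0.341), Nr1d1 by -1.10 ± 0.34 (adjusted p = 0.053), Tef by -0.03 ± 0.25 (adjusted p = 0.964) and Hoxd13 by -0.01 ± 0.57 (adjusted p = 0.996). Cry1, lower in wild-type chronic controls without passing, rose by 0.76 ± 0.20 in KO mice (adjusted p = 0.0246).

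The difference between the genotypes was tested gene by gene, and 5 genes (0.0251%) passed, 1 with a positive (0.00502%) and 4 with a negative difference (0.0201%), against 1512 (7.58%) at an unadjusted p under 0.05. Nr1d1 was one of them, at 2.64 ± 0.47 (adjusted p = 0.0494, wild-type minus KO difference). The others were Capsl, Bex4, Gfer and Nprl2. This count was 0 when any of 10 of the 16 control arrays was left out and 22 without wild-type chronic control 5. Dbp (2.80, adjusted p = 0.0844), Cry1 (-1.37, adjusted p = 0.0763) and Hoxd13 (1.95, adjusted p = 0.534) did not pass, so a difference between genotypes was not shown for them. Wild-type chronic controls had Dbp at 10.42 ± 0.87 and Nr1d1 at 12.26 ± 0.38 (SD, n = 5), against 8.32 ± 0.13 and 10.72 ± 0.57 in wild-type acute controls (SD, n = 3). KO chronic controls had Dbp at 9.72 ± 1.01 and Nr1d1 at 11.07 ± 0.96 (SD, n = 5), against 10.42 ± 0.12 and 12.17 ± 0.03 in KO acute controls (SD, n = 3). The wild-type acute controls had the lowest mean of the 4 control groups for both genes.

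**Figure D5:**
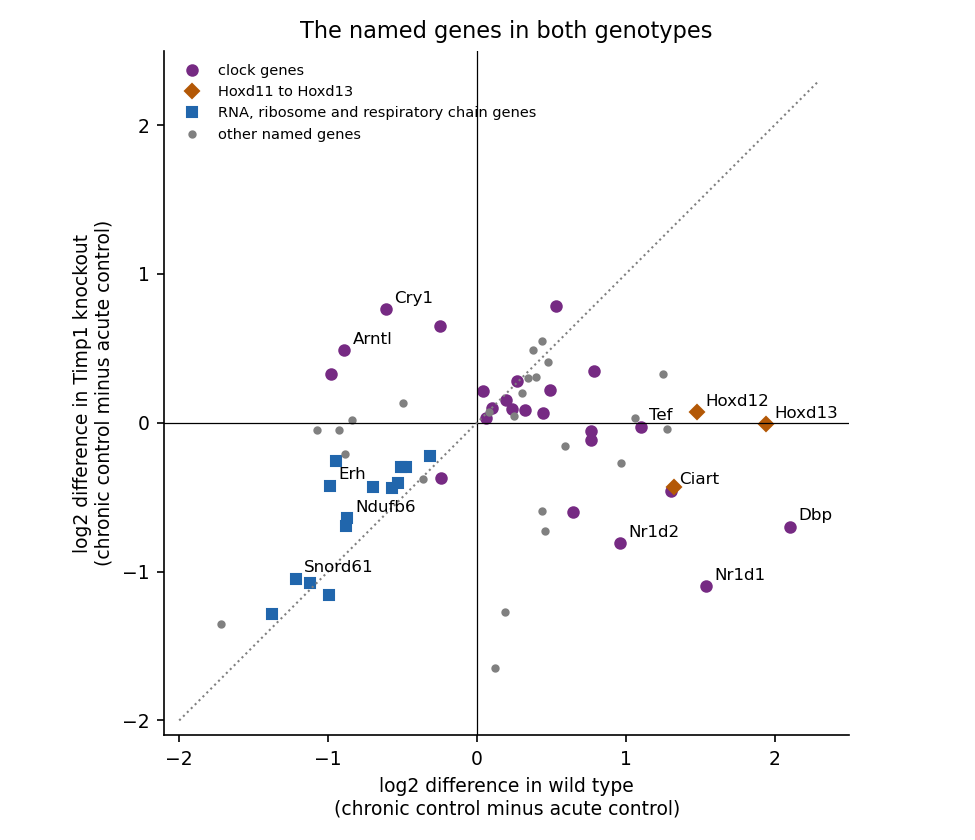
Chronic minus acute control difference (log2) of the genes named by rule, in wild-type mice on the x axis and in Timp1 knockouts on the y axis, with no array shared between the axes. The dotted line marks equal differences. Squares, the named RNA, ribosome and respiratory chain genes, lie below 0 on both axes, circles for Dbp and Nr1d1 lie right of 0 and below it, and diamonds for Hoxd12 and Hoxd13 lie right and close to 0 on the y axis.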

How the data were processed

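Total RNA of snap frozen mouse colon was hybridised to 37 Affymetrix arrays of the type Mouse Gene 1.0 ST. The deposited values are log2 signals made by the authors with RMA, per the submitters' processing notes. No source names the log base, which was read as 2 from the range of 3.03 to 14.96. A version of the software and a genome build are not given in the sources used here.

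Of 35511 transcript clusters, 23410 are in GEO's platform annotation, 21789 with 1 gene symbol and 1621 with several, and 12101 are unnamed here. Each gene was represented by its brightest cluster (mean of the 37 arrays), which left 19938 genes, 999 of them chosen from several clusters. limma 3.58.1 in R 4.3.3 fitted 8 group means to all 37 arrays (29 residual and 3.18 prior degrees of freedom), and contrasts were tested two-sided with Benjamini-Hochberg adjustment over all genes at 0.05. The script was tested on simulated data. Each sample title carries its own animal number, so arrays were taken as separate animals.

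The named genes are the 12 largest changes in each direction among genes that passed, all measured clock genes, the top 3 members of lists in which at least 3 members and 1 in 5 passed, the top 2 of 5 lists of other tissues and of sex-linked genes, and Timp1 to Timp4. Other genes in the text, such as Evx2, Cdx2, Csrp1 and the remaining Hox genes, were chosen after their values were seen. The comparison, the 49 lists and the rules were chosen with earlier results of these data known. Alternatives were all clusters, a robust prior with a trend, a filter that removed the dimmest 33.3% of genes, cyclic loess, array weights, only the arrays compared, sex, animal series as a random block or singly, and each array left out.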

Additional observations from a re-analysis of the deposited data

Results flagged for a closer look

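In chronic control 5 of the wild type, Nr1d1 (11.60) lay apart from the other 4 chronic controls, at 12.33 to 12.57. Gas5 in chronic control 4 (9.73) lay below the other 4, at 10.06 to 10.13. Both gaps passed Dixon's test for a single stray value, which chance alone passes in about 1 in 20 groups.

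Another 5 results concern genes whose chronic minus acute difference was not the same in the 2 genotypes, each at an adjusted p of 0.0494 in limma's interaction test. For Nr1d1 the difference was 1.54 in wild-type mice and -1.10 in KO mice, which differ by 2.64. Capsl differed by -0.39 in wild-type mice and 0.90 in KO mice (-1.28 between them), Bex4 by -0.54 and 0.31 (-0.85), Gfer by -0.32 and 0.32 (-0.64) and Nprl2 by -0.40 and 0.09 (-0.50), in the same order.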

How the results depend on the processing

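The wild-type count of 1400 genes was 5788 with array weights, 2559 with only the arrays compared, 2524 over all clusters, 320 with animal series as a random block and 320 with series 14 alone. It ranged from 380 to 1450 with 1 array left out, and was 963 to 1344 under the other alternatives. The KO count of 894 was 1687 with only the arrays compared, 506 with sex as a covariate and 38 with the random block, and 119 to 1252 with 1 array left out. The interaction count of 5 was 292 with only the arrays compared, 1 with sex, and 0 with the trended prior, the dim filter and the random block (1495, 1132 and 1118 genes at an unadjusted p under 0.05 in limma), and 0 to 22 with 1 array left out. The series 14 minus 11 count of 19 was 5 to 16 with 1 array left out. Of 35 named calls, 10 passed in every alternative run, and no named call changed direction. The random block ended 20, series 14 alone 23 and series 11 alone 9. Among the 65 named genes, array weights added calls for 13 and only the arrays compared for 9. The cause of these changes was not tested. No paired analysis was possible because the replicate numbers follow accession order and pair no animals.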

Other observations

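MicroRNA genes, collected by symbol after their values were seen, had 19 of 300 members higher and 2 lower in wild-type chronic controls than in acute controls, with a median of 0.10, beside 3.5% of all genes higher and 3.52% lower. With the random block 3 were higher and 2 lower, beside 102 and 218 of all 19938 genes. In KO mice 35 of the 300 were higher and none lower in limma's test, beside 2.2% and 2.29% of all genes.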
